A study of Homo sapiens with 9 samples.

Results

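The genes examined were 10 regulators of entry into mitosis: the mitotic cyclins CCNA2, CCNB1 and CCNB2, the cyclin-dependent kinase CDK1, the Polo-like kinase PLK1, the Aurora kinases AURKA and AURKB, and the phosphatases CDC25A, CDC25B and CDC25C. They were taken by symbol from a table of 58735 genes, though earlier results of these data were known when they were chosen. All 10 were among the 16350 genes with enough reads to be tested. RNA came from SKOV3, an ovarian adenocarcinoma cell line. Cells in all 3 groups had been depleted of their own CDK9 by short hairpin RNA and stably re-expressed FLAG-tagged CDK9, the kinase that releases paused RNA polymerase II. WT CDK9 cells and Tyr19Phe CDK9 cells, whose CDK9 has phenylalanine in place of the tyrosine that ALK phosphorylates, were under basal conditions. The ALK inhibitor group was WT CDK9 cells given an ALK inhibitor for 24 h. Each group had 3 libraries. The inhibitor, its dose and a vehicle control are not named for this experiment in the sources used here. Nothing in the labels says that libraries of a group came from separate cultures, so p-values measure only the spread between these libraries, which may be technical. WT CDK9 and Tyr19Phe CDK9 are also separately made cell lines, so the substitution and other differences between the lines cannot be told apart.

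CDK1 is the kinase that drives mitosis. It is active only when bound to a cyclin: cyclin A2 from S phase until early mitosis, cyclins B1 and B2 from G2 until anaphase, when the anaphase-promoting complex has them destroyed. WEE1 and PKMYT1 hold the complex inactive by phosphorylating CDK1, and CDC25 phosphatases remove that mark. PLK1 and AURKA promote this switch, centrosome maturation and spindle assembly, and AURKB, in the chromosomal passenger complex, corrects the attachment of chromosomes to the spindle. Most of these genes are transcribed mainly in G2 and M, through promoter elements named CHR (cell cycle genes homology region) and CCAAT, bound by the MuvB complexes with MYBL2 and FOXM1 and by NF-Y. In bulk RNA, fewer cells in G2 and M and less RNA per such cell cannot be told apart.

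Promoter letters of 5 members are printed below to show CHR and CCAAT letters before cyclin, Polo and CDC25 genes. CDC25A had CCAAT but no CHR match in the same stretch. Each run is the 120 bases before a transcription start listed by RefSeq for GRCh38.p14, read 5′ to 3′ on the gene's strand. Capitals mark CHR letters (TTTGAA or TTCGAA, and the variants CTTGAA or TTTAAA) and CCAAT, on either strand, so that ATTGG is CCAAT on the other strand. No matches overlapped in these runs. The variant letters were added after the sequences had been seen.
CCNA2 (chr4:121823884-121824003, minus strand): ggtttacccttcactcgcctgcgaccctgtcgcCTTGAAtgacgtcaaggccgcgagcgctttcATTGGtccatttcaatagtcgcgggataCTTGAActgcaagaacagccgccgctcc
CCNB1 (chr5:69167030-69167149, plus strand): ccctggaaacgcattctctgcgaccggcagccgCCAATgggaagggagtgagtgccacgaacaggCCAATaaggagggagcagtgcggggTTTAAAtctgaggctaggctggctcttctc
CCNB2 (chr15:59105026-59105145, plus strand): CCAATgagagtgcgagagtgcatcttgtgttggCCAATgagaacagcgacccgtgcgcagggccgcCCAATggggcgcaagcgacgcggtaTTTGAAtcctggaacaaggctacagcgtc
PLK1 (chr16:23678769-23678888, plus strand): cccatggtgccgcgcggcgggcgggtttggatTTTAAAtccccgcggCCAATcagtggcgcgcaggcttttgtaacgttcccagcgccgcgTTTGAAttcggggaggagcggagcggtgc
CDC25B (chr20:3796190-3796309, plus strand): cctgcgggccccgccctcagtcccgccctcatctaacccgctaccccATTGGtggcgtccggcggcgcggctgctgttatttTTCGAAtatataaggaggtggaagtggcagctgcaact

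In these runs a CHR match lay close to the start, with its first base at position -28 in CCNA2, -30 in CCNB1, -29 in CCNB2, -29 in PLK1 and -38 in CDC25B, counting -1 as the last base before the start. A CCAAT match lay upstream of it in each, at -56, -55, -54, -73 and -73. CDK1, which is not printed, had another layout, with TTTGAA at -69 and -13 and CCAAT at -78 and -46. Of the 10 members, 9 matched a RefSeq promoter entry, and AURKA did not. TTTGAA or TTCGAA occurred in the 120 bases before a start of 5 of these 9 genes (CCNB2, CDK1, PLK1, CDC25B and CDC25C), against 7.58% of 27305 genes. CTTGAA or TTTAAA occurred in 3 of 9 (CCNA2, CCNB1 and PLK1), against 10.5%, and CCAAT in 8 of 9, all but AURKB, against 24.3%. The share for CTTGAA or TTTAAA is no test, because these letters were added after the sequences had been seen. The CHR matches of CCNA2 and CCNB1 rest on them alone. The CDC25B run belongs to 1 of the gene's 4 listed starts. CDK1 and CDC25C also had CHR matches at only 1 of their listed starts. A gene with several starts has more chances to match. These matches are letters only, and whether they go with the direction of change was not tested. CCNA2 and CCNB1, called lower in Tyr19Phe CDK9 cells, carried variant letters. CCNB2, called lower against the inhibitor group, carried TTTGAA, PLK1, with no call, carried both, and CDC25B, called higher, carried TTCGAA. Among members not printed, CDK1 and CDC25C, with no call, carried TTTGAA. CDC25A and AURKB, also with no call, had no CHR match.

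Library totals were 18939449 to 19731228 counts in WT CDK9 cells, 18169050 to 20974903 with ALK inhibitor and 26485891 to 29320184 in Tyr19Phe CDK9 cells. Members had between 252 counts (CDC25C) and 9375 counts (CDC25B) in a library. In each treated or mutant group 1 library listed fewer genes with a count than the others: ALK inhibitor replicate 2 (19944, against 21911 and 21915) and Tyr19Phe replicate 3 (20635, against 22609 and 22744). The calls of CCNA2, CCNB2 and CDC25B given here held without either library, and that of CCNB1 was lost without Tyr19Phe replicate 3. The epithelial markers KRT8, KRT18, KRT19, KRT7, ERBB2 and PAX8 had at least 2422 counts in every library, MUC1 had 238 to 422 and WT1 had 7 to 52. Markers of leukocytes, endothelium and fibroblasts had 0 to 17 counts. CDK9 itself, whose reads do not separate endogenous from re-expressed transcripts here, averaged 48.6 ± 1.03 CPM (counts scaled to a common library size) in WT CDK9 cells, 45.6 ± 1.77 with ALK inhibitor and 55.0 ± 3.94 in Tyr19Phe CDK9 cells (SD, n = 3). Against WT CDK9 cells neither difference in CDK9 passed (edgeR quasi-likelihood adjusted p = 0.665 and 0.106), whereas the Tyr19Phe line exceeded the inhibitor group (log2 fold change 0.27, adjusted p = 0.00961). CDK9 counts were no check of the labels. Epithelial markers were not all alike between groups. KRT19 averaged 245.6 CPM in WT CDK9 cells, 284.5 with ALK inhibitor and 103.9 in Tyr19Phe CDK9 cells. ERBB2 averaged 1800, 2625 and 1470 CPM in the same order, and PAX8 269.6, 263.1 and 266.3.

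Per length, CCNB1 and CDC25B were the most abundant members and CDC25C the least abundant. Levels between genes are given in RPKM, CPM per kilobase of the length listed for the gene, as the mean of the 9 libraries. CCNB1 stood at 79.4, CDC25B at 74.4 and CCNA2 at 63.5 RPKM, and the ranges of neighbours in this order overlapped. CDK1 followed at 37.0 RPKM, with no library as high as any of CCNA2 (33.6 to 41.3 against 53.9 to 70.1). CCNB2 (27.2), AURKA (26.7), PLK1 (24.6) and AURKB (20.1) formed a run of overlapping ranges below CDK1. CDC25A, the family member that also acts at the start of S phase, lay lower at 9.62 RPKM, and CDC25C lay lowest at 4.18. The 3 phosphatases thus spanned 4.18 to 74.4 RPKM in the same libraries, with CDC25B far above its relatives.

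**Figure D1:**
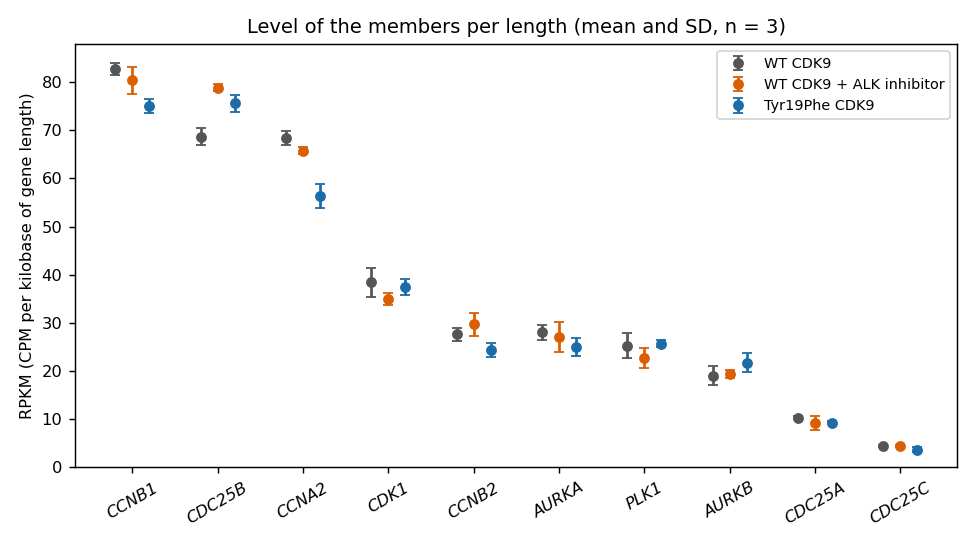
Level of each member per length (vertical axis, RPKM) in the 3 groups, ordered by the mean over all libraries, points and whiskers being mean and SD of 3 libraries. CCNB1, CDC25B and CCNA2 lie at 53.9 RPKM or more in every library, and CDC25C at 4.61 RPKM or less.

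In Tyr19Phe CDK9 cells the cyclins CCNA2 and CCNB1 fell and the phosphatase CDC25B rose against WT CDK9 cells, with the CCNB1 call lost in 8 of 18 other ways of processing, while the kinases CDK1 and PLK1 stayed within the spread of the WT CDK9 libraries. After 24 h of ALK inhibitor CDC25B rose and no member passed as lower. Values are CPM, the counts scaled to a common library size with TMM factors, in the order of the replicate numbers. A gene was called at an adjusted p under 0.05 (edgeR quasi-likelihood test, Benjamini-Hochberg over all 16350 genes).

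**Figure D2:**
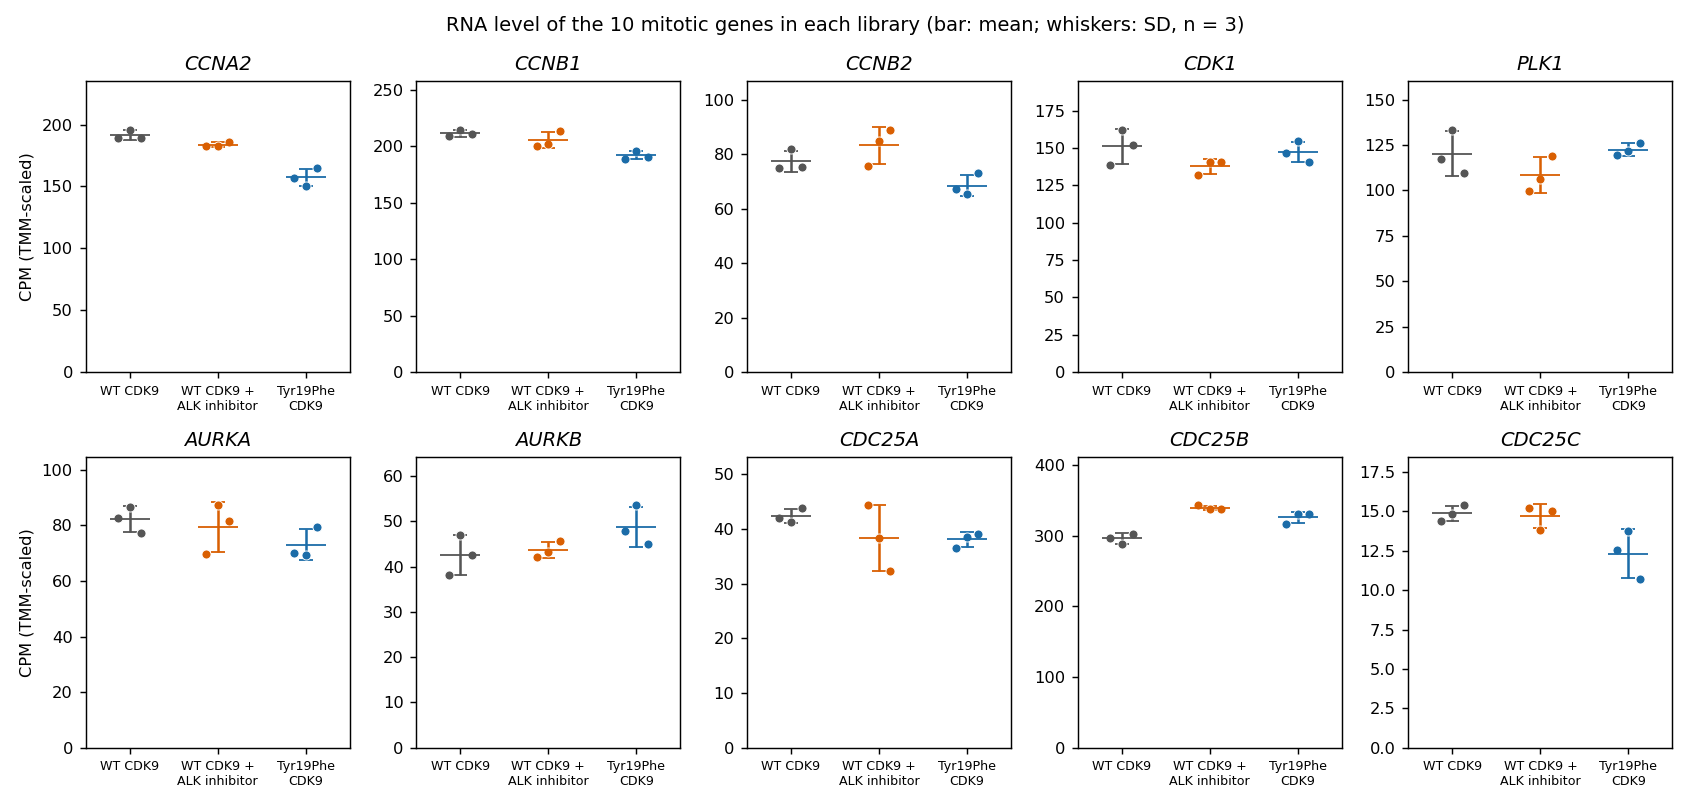
RNA level (vertical axis, TMM-scaled CPM, from 0) of each member in every library, by group, with 1 point a library, bars for the mean and whiskers for the SD of 3 libraries. The 3 Tyr19Phe CDK9 points of CCNA2 (150.7 to 164.6) lie below all 6 others, and the WT CDK9 points of CDC25B (288.1 to 303.1) lie below all others.

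CCNA2 (ENSG00000145386, chr4:121816444-121823933), which encodes cyclin A2, measured 188.9, 196.0 and 189.0 CPM in WT CDK9 cells, 182.8, 182.9 and 186.2 CPM with ALK inhibitor and 156.9, 150.7 and 164.6 CPM in Tyr19Phe CDK9 cells. The Tyr19Phe libraries lay below all the others, and the ALK inhibitor libraries lay just below WT CDK9. In Tyr19Phe CDK9 cells CCNA2 fell to 0.823 of the WT CDK9 level (log2 fold change -0.28, SE 0.05, adjusted p = 3.2e-05). With ALK inhibitor the difference was -0.06 on the log2 scale (95% interval -0.15 to 0.04, adjusted p = 0.658). Between Tyr19Phe CDK9 cells and the inhibitor group it was -0.23 (adjusted p = 0.000531), so the lower level in the mutant line was itself separated from the treated WT line.

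CCNA2 shares 578 bases of its span (7.72%) with EXOSC9, an exosome subunit gene on the opposite strand. The strand setting of the counting is not given in the sources used here, so reads from that stretch cannot be told apart. EXOSC9 also fell in Tyr19Phe CDK9 cells, from 55.7 to 46.4 CPM (log2 fold change -0.26, adjusted p = 0.0137). Other genes around CCNA2 were lower as well. Of the 29 tested genes with midpoints within 5 Mb, 11 were called lower and 0 higher, and 24 had a log2 fold change below 0. Their median was -0.20, beside -0.28 for CCNA2 and 0.0035 for all genes. Of the 29, 12 had a value below that of CCNA2. Between Tyr19Phe CDK9 cells and the inhibitor group, 12 of the 29 were lower and 0 higher, with a median of -0.32. In that comparison 17 of the 29 had a value below that of CCNA2 (-0.225). With ALK inhibitor the median of the same neighbours was -0.005 and none was called (0 at adjusted p under 0.05 in either direction). The part of a regional difference between the lines, such as one of copy number, in the value of CCNA2 was not tested.

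CCNB1 (ENSG00000134057, chr5:69167010-69178245), encoding cyclin B1, measured 209.1, 214.9 and 210.6 CPM in WT CDK9 cells, 200.6, 202.5 and 213.6 CPM with ALK inhibitor and 189.2, 196.2 and 191.0 CPM in Tyr19Phe CDK9 cells. All Tyr19Phe libraries were below all WT CDK9 libraries. In those libraries CCNB1 fell to 0.908 of the WT CDK9 level (log2 fold change -0.14, SE 0.04, adjusted p = 0.026). This call was borderline: it held in 10 of 18 other ways of processing, with adjusted p between 0.00867 and 0.0948, and was lost when any 1 WT CDK9 library, Tyr19Phe replicate 1 or Tyr19Phe replicate 3 was left out (log2 fold changes -0.14 to -0.12). The 57 tested neighbours of CCNB1 within 5 Mb had a median of -0.006, with 30 of 57 below 0, 4 called lower and 2 called higher. CCNB1 with ALK inhibitor differed by -0.04 from WT CDK9 cells (95% interval -0.13 to 0.05, adjusted p = 0.764).

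CCNB2 (ENSG00000157456, chr15:59105078-59125045), the second B-type cyclin, measured 74.8, 81.8 and 75.4 CPM in WT CDK9 cells, 75.6, 84.9 and 89.0 CPM with ALK inhibitor and 67.0, 65.4 and 72.9 CPM in Tyr19Phe CDK9 cells. The Tyr19Phe libraries were the lowest of all. Against WT CDK9 cells the log2 fold change was -0.18 (95% interval -0.32 to -0.04) and did not pass (adjusted p = 0.0768). Against the inhibitor group it was -0.28 (SE 0.07) and passed (adjusted p = 0.00318), with an uncalled log2 fold change of 0.10 for ALK inhibitor against WT CDK9 cells (adjusted p = 0.549). Among 57 tested neighbours of CCNB2 within 5 Mb, 11 were lower and 2 higher in the mutant line against WT CDK9 cells. Their median was -0.06. Against the inhibitor group, 10 of the 57 were lower and 4 higher, with a median of -0.05, and within 2 Mb the median was -0.15.

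CDK1 (ENSG00000170312, chr10:60778331-60794852) measured 138.8, 162.3 and 152.1 CPM in WT CDK9 cells, 132.1, 140.4 and 140.6 CPM with ALK inhibitor and 146.4, 154.4 and 140.8 CPM in Tyr19Phe CDK9 cells. The Tyr19Phe libraries lay within the range of the WT CDK9 libraries. Against WT CDK9 cells it differed by -0.04 on the log2 scale in the mutant line (95% interval -0.15 to 0.08, adjusted p = 0.727), an interval that leaves out a value as low as that of CCNA2 (-0.28) but holds that of CCNB1 (-0.14). CDK1 was not tested against the cyclins. With ALK inhibitor it was -0.13 (SE 0.06), with an unadjusted p of 0.0236 and an adjusted p of 0.226, and the groups overlapped. The surroundings of CDK1 went another way in Tyr19Phe CDK9 cells. Of 20 tested genes within 5 Mb, 5 were higher and 0 lower, with a median of 0.19, and 2 of the 20 had a value below that of CDK1. With ALK inhibitor 3 of the 20 were lower and 0 higher, with a median of -0.01. Between Tyr19Phe CDK9 cells and the inhibitor group CDK1 differed by 0.10 (adjusted p = 0.243). All Tyr19Phe libraries lay above all inhibitor libraries there, though barely, as for 16.7% of all genes. In that comparison 6 of the 20 neighbours were higher and 1 lower, with a median of 0.27.

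**Figure D3:**
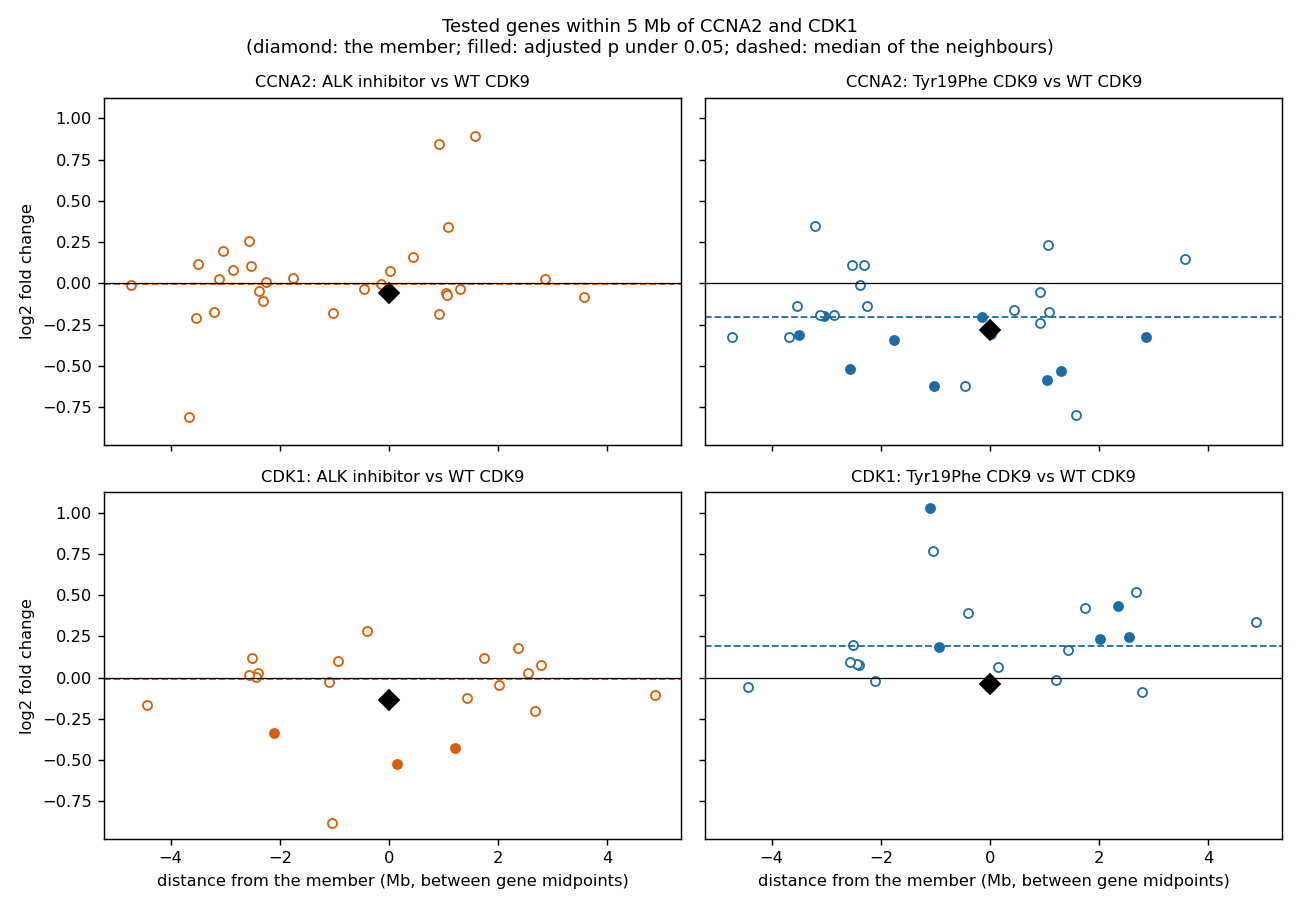
Log2 fold change (vertical axis) of the tested genes within 5 Mb of CCNA2 (top) and CDK1 (bottom) against their distance in Mb, with ALK inhibitor (left) and in Tyr19Phe CDK9 cells (right), both against WT CDK9 cells. In Tyr19Phe CDK9 cells the dashed median lies at -0.20 around CCNA2 and 0.19 around CDK1, and near 0 on the left. The black diamond is the member.

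PLK1 (ENSG00000166851, chr16:23677656-23690367) measured 117.5, 133.5 and 109.7 CPM in WT CDK9 cells, 99.7, 106.3 and 119.2 CPM with ALK inhibitor and 119.4, 121.8 and 126.2 CPM in Tyr19Phe CDK9 cells. The Tyr19Phe libraries lay within the range of the WT CDK9 libraries, and ALK inhibitor replicates 1 and 2 lay below it. Against WT CDK9 cells the log2 fold change was -0.15 with ALK inhibitor (95% interval -0.29 to -0.02, adjusted p = 0.26) and 0.03 in Tyr19Phe CDK9 cells (95% interval -0.11 to 0.16, adjusted p = 0.854). The Tyr19Phe libraries lay above all inhibitor libraries, as for 16.7% of all genes, at a log2 fold change of 0.18 that missed the threshold (SE 0.07, adjusted p = 0.0541). That difference passed in 9 of 18 other ways of processing, among them without ALK inhibitor replicate 3 (log2 fold change 0.25, adjusted p = 0.013), WT CDK9 replicate 2 (0.18, adjusted p = 0.0319) or WT CDK9 replicate 3 (0.18, adjusted p = 0.0399).

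AURKA (ENSG00000087586, chr20:56369389-56392337) measured 82.7, 86.6 and 77.4 CPM in WT CDK9 cells, 69.6, 87.3 and 81.7 CPM with ALK inhibitor and 70.2, 69.5 and 79.4 CPM in Tyr19Phe CDK9 cells. AURKB (ENSG00000178999, chr17:8204733-8210600) measured 38.2, 47.0 and 42.6 CPM in WT CDK9 cells, 42.1, 43.1 and 45.7 CPM with ALK inhibitor and 47.7, 53.5 and 44.9 CPM in Tyr19Phe CDK9 cells. The 2 Aurora kinases had opposite signs in Tyr19Phe CDK9 cells, with overlapping libraries in both. Against WT CDK9 cells AURKA differed by -0.17 (unadjusted p = 0.0276, adjusted p = 0.113) and AURKB by 0.19 (unadjusted p = 0.0322, adjusted p = 0.126), and neither passed. Without WT CDK9 replicate 2, the highest of its group, AURKB passed (log2 fold change 0.27, adjusted p = 0.0448). With ALK inhibitor the log2 fold changes were -0.05 for AURKA (95% interval -0.20 to 0.10) and 0.03 for AURKB (95% interval -0.15 to 0.21).

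CDC25B (ENSG00000101224, chr20:3786772-3806121), a phosphatase that starts CDK1 activation, measured 297.6, 288.1 and 303.1 CPM in WT CDK9 cells, 343.4, 338.7 and 338.3 CPM with ALK inhibitor and 317.5, 330.8 and 330.3 CPM in Tyr19Phe CDK9 cells. All libraries of both other groups were above all WT CDK9 libraries. With ALK inhibitor CDC25B rose to 340.1 CPM from 296.3 CPM on average (log2 fold change 0.20, SE 0.04, adjusted p = 0.00137). In Tyr19Phe CDK9 cells it rose to 326.2 CPM (log2 fold change 0.14, SE 0.04, adjusted p = 0.0122). These comparisons share their WT CDK9 libraries. Both calls held in 18 of 18 other ways of processing, with a highest adjusted p of 0.0103 and 0.0498. The Tyr19Phe and inhibitor groups differed by -0.06 (95% interval -0.14 to 0.02, adjusted p = 0.315). The 75 tested neighbours of CDC25B within 5 Mb had medians of -0.03 with ALK inhibitor and -0.01 in Tyr19Phe CDK9 cells, and no other gene of the table overlaps it.

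CDC25A (ENSG00000164045, chr3:48157146-48188402) measured 42.0, 41.3 and 43.9 CPM in WT CDK9 cells, 44.3, 38.3 and 32.3 CPM with ALK inhibitor and 36.6, 38.5 and 39.2 CPM in Tyr19Phe CDK9 cells. CDC25C (ENSG00000158402, chr5:138285265-138338355), which is switched on in G2, measured 14.42, 14.83 and 15.39 CPM in WT CDK9 cells, 15.24, 13.84 and 15.04 CPM with ALK inhibitor and 12.53, 13.74 and 10.68 CPM in Tyr19Phe CDK9 cells. For both genes the Tyr19Phe libraries lay below all WT CDK9 libraries, and neither passed the test. CDC25C had a log2 fold change of -0.27 there, close to that of CCNA2, but with an SE of 0.13 at its low counts (95% interval -0.55 to 0.00, adjusted p = 0.175). CDC25A had -0.15 (95% interval -0.34 to 0.04, adjusted p = 0.289). FAM53C, on the opposite strand, overlaps 6421 bases (12.1%) of the span of CDC25C. FAM53C had 664 to 1414 counts in a library, against 252 to 386 for CDC25C. As for CCNA2, reads from the shared stretch cannot be told apart. In Tyr19Phe CDK9 cells FAM53C had an uncalled log2 fold change of 0.18 against WT CDK9 cells (adjusted p = 0.19). With ALK inhibitor CDC25A differed by -0.14 (adjusted p = 0.537), with its libraries spread from 32.3 to 44.3 CPM, and CDC25C by -0.02 (adjusted p = 0.979).

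**Figure D4:**
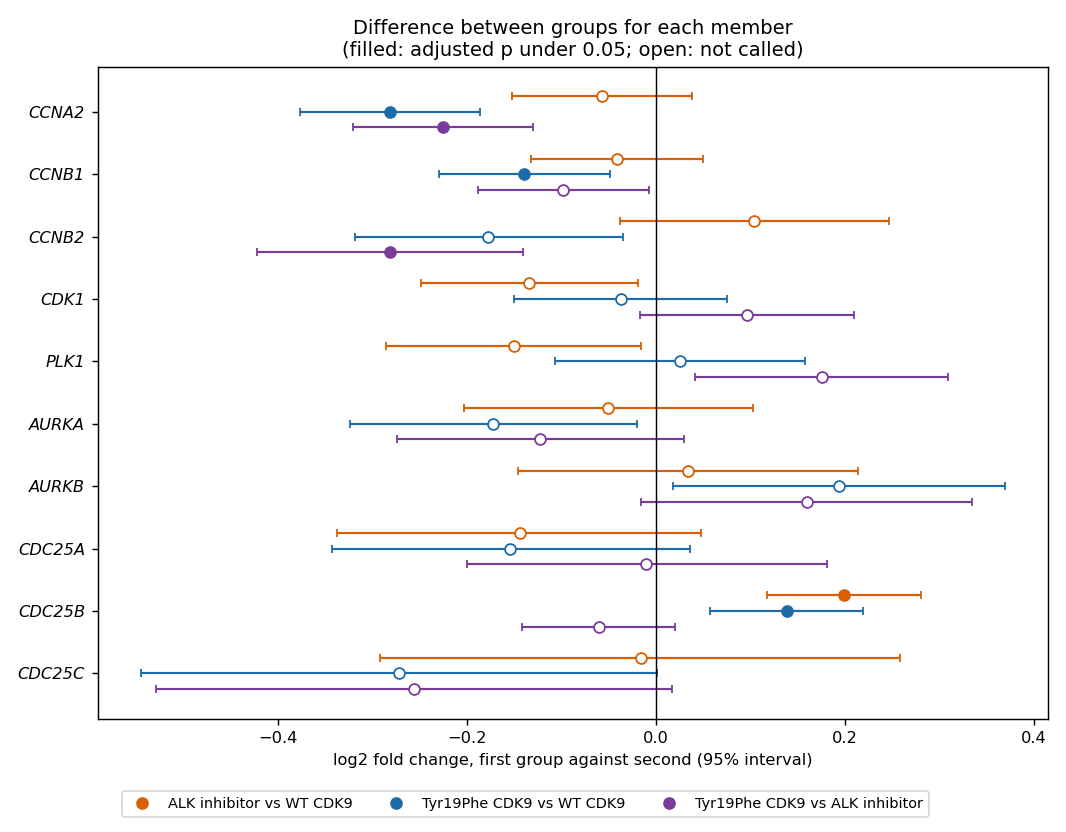
Log2 fold change of each member (horizontal axis) with its 95% interval in 3 comparisons, filled where the adjusted p was under 0.05. CCNA2 and CCNB1 are filled below 0 and CDC25B above 0 in Tyr19Phe CDK9 against WT CDK9 cells, and CDC25B is the filled point with ALK inhibitor.

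Counted over the members, 0 of 10 passed as lower and 1 as higher with ALK inhibitor, against 2.73% and 1.82% of all genes tested. At an unadjusted p under 0.05, 2 were lower (CDK1 and PLK1) and 1 higher, and DESeq2 also called 0 lower. In Tyr19Phe CDK9 cells 2 of 10 were lower and 1 higher, against 10.4% and 7.61% of all genes. Between Tyr19Phe CDK9 cells and the inhibitor group 2 were lower (CCNA2 and CCNB2) and 0 higher, against 11.1% and 9.57%. With 10 genes, shares of this size are too coarse to set the members apart from the rest. Complete separation of libraries below WT CDK9 was seen for 5 members in Tyr19Phe CDK9 cells (CCNA2, CCNB1, CCNB2, CDC25A and CDC25C), against 17.2% of all genes, and for CCNA2 alone with ALK inhibitor, against 10.3%. Libraries of CDC25B lay above all WT CDK9 libraries in both comparisons, as for 15.4% of genes in Tyr19Phe CDK9 cells and 9.31% with ALK inhibitor. The median log2 fold change of the members was -0.05 with ALK inhibitor and -0.15 in Tyr19Phe CDK9 cells, with 7 of 10 below 0 in each, beside medians of -0.0010 and 0.0035 for all genes. The mean log2 CPM of the members was 6.50 ± 0.05 in WT CDK9 cells, 6.48 ± 0.03 with ALK inhibitor and 6.41 ± 0.02 in Tyr19Phe CDK9 cells (SD, n = 3).

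The members sit in a wider network, described here by 6 lists holding 111 further mitotic genes, of which 110 were tested. These lists were also chosen with earlier results of these data known. CCNB3, a further B-type cyclin, was not tested, with 0 to 8 counts in a library. With ALK inhibitor 7 of the 110 fell (6.36%, against 2.73% of all genes) and 0 rose, with 18 lower and 5 higher at an unadjusted p under 0.05. DESeq2 called 1 of them higher. Between the lines, Tyr19Phe against WT CDK9, 13 fell (11.8%, against 10.4%) and 7 rose (6.36%, against 7.61%), shares close to those of all genes. Median log2 fold changes over the 110 genes were -0.01 with ALK inhibitor and -0.001 in Tyr19Phe CDK9 cells. A call in 1 of these comparisons and not in the other does not by itself separate the Tyr19Phe group from the inhibitor group.

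**Figure D5:**
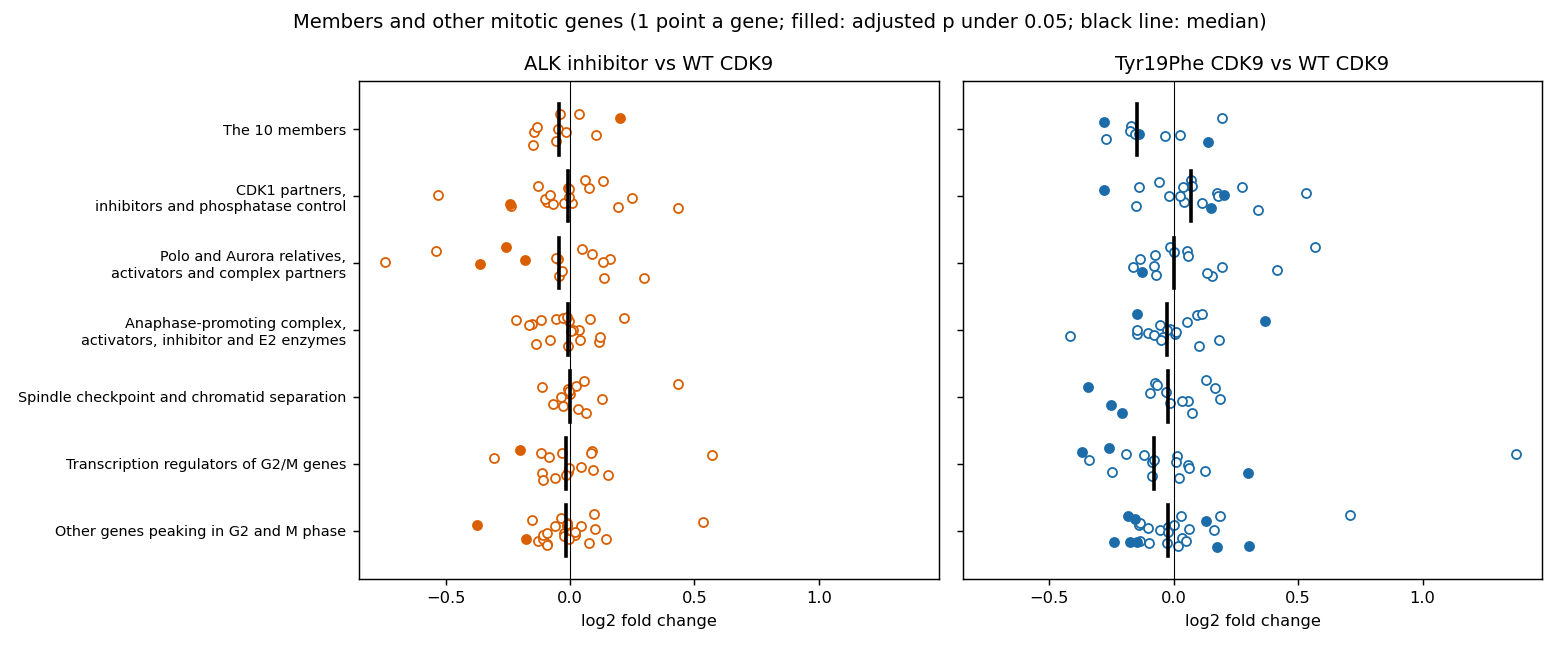
Log2 fold change (horizontal axis) of the 10 members and of the tested genes of each mitotic list, with 1 point a gene, filled where the adjusted p was under 0.05, and a black line for the median. List medians lie between -0.08 and 0.07 in both comparisons, and the members' median in Tyr19Phe CDK9 cells (-0.15) lies below them.

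Among partners and controllers of CDK1, 1 of 19 tested genes fell with ALK inhibitor: PKMYT1, an inhibitory kinase of CDK1, went from 130.2 to 110.1 CPM (log2 fold change -0.24, adjusted p = 0.0213). Within the mutant line 1 fell and 2 rose. WEE1, the other inhibitory kinase, rose from 86.5 to 99.6 CPM (log2 fold change 0.20, adjusted p = 0.0157). WEE1 had nearly the same level with ALK inhibitor, without a call (99.0 CPM, log2 fold change 0.19, adjusted p = 0.0627). The Tyr19Phe and inhibitor groups differed in WEE1 by 0.008 (adjusted p = 0.952). ENSA, which through Greatwall restrains the phosphatase PP2A, rose by 0.15 on the log2 scale in the mutant line (adjusted p = 0.0334). CDKN3, a phosphatase acting on cyclin-dependent kinases, fell by 0.28 in the mutant line (adjusted p = 0.0177). With ALK inhibitor CDKN3 had an uncalled log2 fold change of -0.24 (adjusted p = 0.132). The Tyr19Phe and inhibitor groups differed in CDKN3 by -0.04 (adjusted p = 0.79). Each call of this list was lost in some fits with 1 library left out. PKMYT1 did not pass without WT CDK9 replicate 1 or 2 or ALK inhibitor replicate 3 (log2 fold changes -0.22 to -0.18), nor WEE1 without WT CDK9 replicate 2 or Tyr19Phe replicate 1 (0.17 and 0.18). ENSA did not pass without WT CDK9 replicate 1 or 2 or Tyr19Phe replicate 2 or 3 (0.12 to 0.15), nor CDKN3 without WT CDK9 replicate 3 or Tyr19Phe replicate 2 or 3 (-0.27 to -0.20).

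Among relatives and partners of the Polo and Aurora kinases, 3 of 15 fell with ALK inhibitor. PLK2, a stress-responsive Polo-like kinase, went from 529.8 to 412.4 CPM (log2 fold change -0.36, SE 0.04, adjusted p = 3e-08), AJUBA, an activator of AURKA, fell by 0.26 (adjusted p = 9.2e-05), and TACC3, an AURKA substrate of the spindle, fell by 0.18 (adjusted p = 0.0253). The TACC3 call was lost when any 1 of the WT CDK9 or ALK inhibitor libraries was left out (adjusted p = 0.0545 to 0.112, log2 fold changes -0.19 to -0.17), and with library size alone in place of TMM (adjusted p = 0.067). In the mutant line TACC3 just missed the threshold against WT CDK9 cells (log2 fold change -0.14, adjusted p = 0.0514). The Tyr19Phe and inhibitor groups differed in TACC3 by 0.05 (adjusted p = 0.575). PLK2 was also the 1 gene of 15 called in the mutant line, at 485.3 CPM (log2 fold change -0.13, adjusted p = 0.0156), a level above that of the inhibitor group (log2 fold change 0.24, adjusted p = 1.74e-05). The call against WT CDK9 cells was lost without WT CDK9 replicate 3 or Tyr19Phe replicate 2 (log2 fold changes -0.11 and -0.10), and with library size alone (adjusted p = 0.0579).

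Genes of the anaphase-promoting complex, which marks the mitotic cyclins for destruction, gave 0 calls among 19 with ALK inhibitor, with 3 lower and 0 higher at an unadjusted p under 0.05. In the mutant line the subunit gene ANAPC2 rose from 54.4 to 70.0 CPM (log2 fold change 0.37, adjusted p = 0.000633), while CDC27, another subunit, fell by 0.15 (adjusted p = 0.0282). CDC27 did not pass without WT CDK9 replicate 1 or 3 or Tyr19Phe replicate 2 or 3 (log2 fold changes -0.14 to -0.12), nor with upper quartile scaling, library size alone or no filter (adjusted p = 0.0648, 0.0781 and 0.0503). The spindle checkpoint list gave 0 calls among 14 with ALK inhibitor, with 0 lower and 1 higher at an unadjusted p under 0.05. In the mutant line 3 of the 14 fell and 0 rose: MAD2L1 from 122.1 to 96.2 CPM (log2 fold change -0.35, adjusted p = 4.18e-05), KNL1 by 0.25 (adjusted p = 0.000309) and BUB1B by 0.21 (adjusted p = 0.00326). These proteins hold back anaphase until chromosomes are attached. MAD2L1 lies on chromosome 4 within 5 Mb of CCNA2, at a distance of -1.76 Mb (toward lower coordinates). KNL1 (chr15:40594020-40664342) and BUB1B (chr15:40161023-40221136), both lower, lie close together. ANAPC2 (chr9:137174784-137188549) lies close to the tubulin gene TUBB4B (chr9:137241213-137243707), which also rose in the mutant line. Calls of such neighbours need not be independent, and the part of a regional difference between the lines was not tested.

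Of 17 tested regulators of G2 and M transcription, 1 fell with ALK inhibitor: E2F1, an activator of S-phase genes (log2 fold change -0.20, adjusted p = 0.0252). Its call was lost without WT CDK9 replicate 2 or 3 or ALK inhibitor replicate 2 or 3 (log2 fold changes -0.21 to -0.16), and with library size alone (adjusted p = 0.06). In the mutant line LIN54, the MuvB subunit that binds the CHR, went from 47.8 to 36.9 CPM (log2 fold change -0.37, adjusted p = 0.0014), RBL1, a pocket protein of the repressing complex, fell by 0.26 (adjusted p = 0.00984), and E2F7, a repressor, rose by 0.30 on the log2 scale (adjusted p = 0.000615). RBL1 did not pass without Tyr19Phe replicate 3 (log2 fold change -0.22). LIN54 (chr4:82909973-83012926) lies on chromosome 4, as CCNA2 and MAD2L1 do, though not within 5 Mb of CCNA2. The part of a difference between the lines along that chromosome in the value of LIN54 was not tested. The activators MYBL2 and FOXM1 did not pass in either comparison, though DESeq2 called MYBL2 lower with ALK inhibitor (adjusted p = 0.0124). MYBL2 had log2 fold changes of -0.12 with ALK inhibitor (adjusted p = 0.0694) and -0.08 in Tyr19Phe CDK9 cells (adjusted p = 0.137), and FOXM1 had -0.01 and 0.06 (adjusted p = 0.974 and 0.467).

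Of 26 other genes that peak in G2 and M, 2 fell with ALK inhibitor: ANLN, a cytokinesis scaffold (log2 fold change -0.18, adjusted p = 0.00318), and TROAP (log2 fold change -0.38, adjusted p = 0.00119). For Tyr19Phe against WT CDK9, 5 fell and 3 rose. Those with the smallest adjusted p were the proliferation marker MKI67, from 664.8 to 562.4 CPM (log2 fold change -0.24, adjusted p = 2.71e-05), the tubulin gene TUBB4B, which rose by 0.18 on the log2 scale (adjusted p = 0.00126), and the topoisomerase gene TOP2A, which fell by 0.16 (adjusted p = 0.00237). CKAP2 fell by 0.18 (adjusted p = 0.0189) and ECT2, a cytokinesis exchange factor, by 0.15 (adjusted p = 0.0243). Both calls were lost without WT CDK9 replicate 1 or 3 or Tyr19Phe replicate 2 (log2 fold changes -0.18 to -0.13 for CKAP2 and -0.14 to -0.10 for ECT2). The ECT2 call was also lost with upper quartile scaling (adjusted p = 0.057) and library size alone (adjusted p = 0.0688).

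Likeness of profile was measured as the root mean square difference of centred log2 CPM over the 9 libraries, among 11140 genes averaging 5 CPM or more. The genes nearest to CDK1 were WDR33 (0.036), MED25 (0.045), EEF1B2 (0.046), ZDHHC18 (0.047) and NSA2 (0.049), beside a median of 0.159 and a value of 0.086 for a flat profile. No other member was among them: PLK1 (0.093) and CCNB1 (0.095) came nearest, at ranks 833 and 960. Nearest to CCNA2 were CCNI (0.035), ABCE1 (0.035), MAPK6 (0.036), PSMA3 (0.036) and RAB34 (0.036), beside a median of 0.181 and 0.126 for a flat profile. CCNI and ABCE1 lie on chromosome 4, as CCNA2 does. Among members, CCNB1 (0.077, rank 423) and CCNB2 (0.087, rank 677) were closest to CCNA2, and AURKB was farthest (0.233, rank 7985).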

How the data were processed

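Total RNA was sequenced by a company. The counts deposited by the authors are whole numbers of reads per gene and library, not normalized. The submitters' processing notes name CASAVA, HISAT2 2.0.5, featureCounts 1.5.0-p3 and hg38; annotation release and strand setting are not given in the sources used here. Positions and lengths are those of the deposited table. Groups came from the labels. All 9 libraries were fitted in 1 model (edgeR 4.0.16, R 4.3.3) with TMM scaling (factors 0.9864 to 1.009), filterByExpr (minimum count 10, total 15), the quasi-likelihood test and Benjamini-Hochberg adjustment over 16350 genes. The procedure was tested on simulated data. Log2 CPM used a prior count of 2. DESeq2 1.42.0 was an alternative. Precision was limited by library totals and n = 3.

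The members and lists were chosen with earlier results of these data known. Named were all members, up to 5 called genes with the smallest adjusted p in each list and comparison with WT CDK9, the 5 genes nearest in profile to CDK1 and CCNA2, overlapping genes, CDK9, MYBL2 and FOXM1. Same-numbered libraries did not deviate together (correlations -0.012 to 0.026) and were not paired. Protein sequences were not analysed here.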

Additional observations from a re-analysis of the deposited data

How the results depend on the processing

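Counts of calls and the log2 fold changes of members and named list genes were recomputed in 18 ways: 9 changes of scaling, test, filter or model and 9 omissions of 1 library. Scaling moved the median of all genes by at most 0.030 (log2). The calls of CCNA2 in Tyr19Phe CDK9 cells (against both other groups), of CCNB2 against the inhibitor group and of CDC25B against WT CDK9 held in all 18. With 1 library left out of a group, the remaining 2 carried its mean, and the spread was pooled over groups. The causes of the changes below were not tested.

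In Tyr19Phe against WT CDK9 cells, members called lower numbered 1, CCNA2, in place of 2 with upper quartile scaling, library size alone and no filter, and 1 to 2 with a library left out (1 without WT CDK9 replicate 1, 2 or 3 or Tyr19Phe replicate 1 or 3). Members called higher numbered 1 to 2 with a library left out, AURKB joining without WT CDK9 replicate 2. Between Tyr19Phe CDK9 cells and the inhibitor group, PLK1 made 1 member higher in place of 0 with upper quartile scaling, no filter, protein-coding genes only, a minimum of 10 counts in every library, the replicate block and a fit of only the 2 groups compared, and 0 to 1 with a library left out. The replicate block, a hint only since the libraries were not paired, changed no other member call. Of the mitotic lists, with ALK inhibitor 1 gene was higher in place of 0 with upper quartile scaling, library size alone, DESeq2, protein-coding genes only and a minimum of 10 counts in every library, and 0 to 2 with a library left out. List genes in Tyr19Phe CDK9 cells numbered 7 to 13 lower (7 without WT CDK9 replicate 3, 8 without Tyr19Phe replicate 2) and 4 to 7 higher (4 without WT CDK9 replicate 2 or Tyr19Phe replicate 2 or 3), and against the inhibitor group 5 to 11 lower (5 without ALK inhibitor replicate 2). All genes called lower with ALK inhibitor numbered 293 to 434 with a library left out, the lowest without WT CDK9 replicate 1.

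Some uncalled log2 fold changes near 0 changed sign and stayed uncalled. With ALK inhibitor and a library left out, AURKA ranged from -0.118 to 0.041 (above 0 without ALK inhibitor replicate 1), AURKB from -0.036 to 0.113 (below 0 without WT CDK9 replicate 1, and -0.001 without ALK inhibitor replicate 3), CDC25C from -0.040 to 0.028 (above 0 without ALK inhibitor replicate 2, and 0.012 without WT CDK9 replicate 3) and FOXM1 from -0.028 to 0.016 (above 0 without ALK inhibitor replicate 3, and 0.005 without WT CDK9 replicate 3). Library size alone gave 0.009 for CDC25C and 0.018 for FOXM1, and upper quartile scaling 0.003 for FOXM1. In Tyr19Phe CDK9 cells CDK1 ranged from -0.091 to 0.021 (above 0 without WT CDK9 replicate 2, and 0.000 without Tyr19Phe replicate 3) and PLK1 from -0.033 to 0.111 (below 0 without WT CDK9 replicate 3). Against the inhibitor group CDC25A ranged from -0.118 to 0.111 (above 0 without ALK inhibitor replicate 1, and 0.018 without Tyr19Phe replicate 1), and gave 0.002 with upper quartile scaling and 0.001 with protein-coding genes only.

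With windows of 2 and 10 Mb, the median around CCNA2 in Tyr19Phe CDK9 cells was -0.29 and -0.20, around CDK1 0.29 and 0.16, around CCNB2 -0.13 (5 of 21 lower, 0 higher) and -0.04, around CCNB1 -0.05 and 0.01, and around CDC25B -0.004 and -0.01. Levels, separation of libraries, likeness of profile and member means were given under 1 setting. Counts of 252 to 386 gave CDC25C the widest interval of the members.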
